A study of Homo sapiens with 6 samples.

Results

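The transcripts of the subunits of RNA polymerases I, II and III were compared between control and drug-treated COV434 cells. A gene was taken as a member when its symbol began with POLR1, POLR2 or POLR3 and went on with the letter of a subunit, which gave 33 of the 16798 genes measured. Of these, 8 carried a polymerase I symbol, 15 a polymerase II symbol and 10 a polymerase III symbol. The rule reads the symbol and no measured value, though the set was picked with earlier results of these data known.

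RNA polymerase I transcribes the large ribosomal RNA precursor, RNA polymerase II transcribes messenger RNAs, and RNA polymerase III transcribes transfer RNAs, the small 5S ribosomal RNA and other short RNAs. Each enzyme has its own pair of large subunits that form the catalytic centre, its own stalk and its own zinc-ribbon subunit, while several small subunits are built into more than one of the enzymes. Alkylating drugs put lesions into DNA, and lesions in a template strand stop a transcribing polymerase.

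Bulk RNA-seq was done on COV434, an established human ovarian cell line that the labels call granulosa cells, with 3 control samples (genotype label WT) and 3 samples labelled CTX and CTX-Induced. CTX is cyclophosphamide, and the agent put on the cells was 4HC, a form of the drug that is active in culture, at 15 µM for 24 h. The treatment text on the labels is the same for all 6 samples, and no vehicle is named for the controls. All 6 samples come from the same line, and nothing states that they came from separate cultures, so the p-values measure the spread between these samples, which may be technical.

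The 6 libraries held between 16133786 and 16702316 expected counts, and the 33 genes took between 0.224% and 0.229% of them. Of 11 granulosa markers, 10 were measured, and 7 of these stayed under 1 CPM (a count scaled to library size) in every sample, among them the defining genes FOXL2, FSHR, CYP19A1, NR5A1 and STAR. AMH averaged 5.15 CPM in control and HSD17B1 14.1 CPM, so the granulosa label has little support from its markers. The 3 granulosa markers that could be tested had edgeR adjusted p-values from 0.451 to 0.962. The summed marker level ranged from 17.2 to 23.8 CPM in control and from 19.8 to 21.1 CPM in 4HC. Among markers of other cell types, PTPRC reached 2.62 CPM and COL1A1 1.49 CPM, while PECAM1 and EPCAM stayed near 0.

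All 33 genes passed the filter on low counts, and the lowest single value was 82.1 expected counts, for POLR2J2. Levels below are given as CPM after TMM scaling when 1 gene is followed across samples, and as TPM, which is per transcript length, when genes are set side by side. In the edgeR fit over 12368 genes, 20 of the 33 genes passed an adjusted p-value under 0.05, against 36.4% of all genes tested. Of them 7 rose, against 19.2% of all genes, and 13 fell, against 17.1%. Among the 10273 genes with at least 5 CPM, a level that all 33 genes reached, the shares were 40.8% called, 20.9% higher and 19.9% lower. The changes were small. None of the 33 reached a fold change of 2, which 142 genes (1.15%) did at an unadjusted p-value under 0.05, and the median log2 fold change was -0.08 for the 33 genes and 0.00 for all genes tested. In 21 genes the 3 control and the 3 4HC samples did not overlap, against 45.3% of all genes tested.

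Set side by side by the number in the symbol, the counts of rises and falls were unequal. Among all genes tested, 19.2% were called higher and 17.1% lower. Of the polymerase I genes, 5 of 8 (62.5%) fell and 0 rose, and their log2 fold changes had a median of -0.13. None of the 8 was higher at an unadjusted p-value under 0.05 or with DESeq2 either. Of the polymerase III genes, 6 of 10 (60%) fell and 1 (10%) rose, with a median of -0.18. Of the polymerase II genes, 6 of 15 (40%) rose and 2 (13.3%) fell, with a median of 0.05. The share of them that fell was thus near that of all genes. Some of these genes encode subunits shared between the enzymes. Without those, 4 of 6 polymerase I genes (66.7%) fell and 0 rose. Of the polymerase II genes, 4 of 10 (40%) rose and 1 (10%) fell. No test of the difference between the 3 groups of genes was made, because genes are not replicates.

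**Figure D1:**
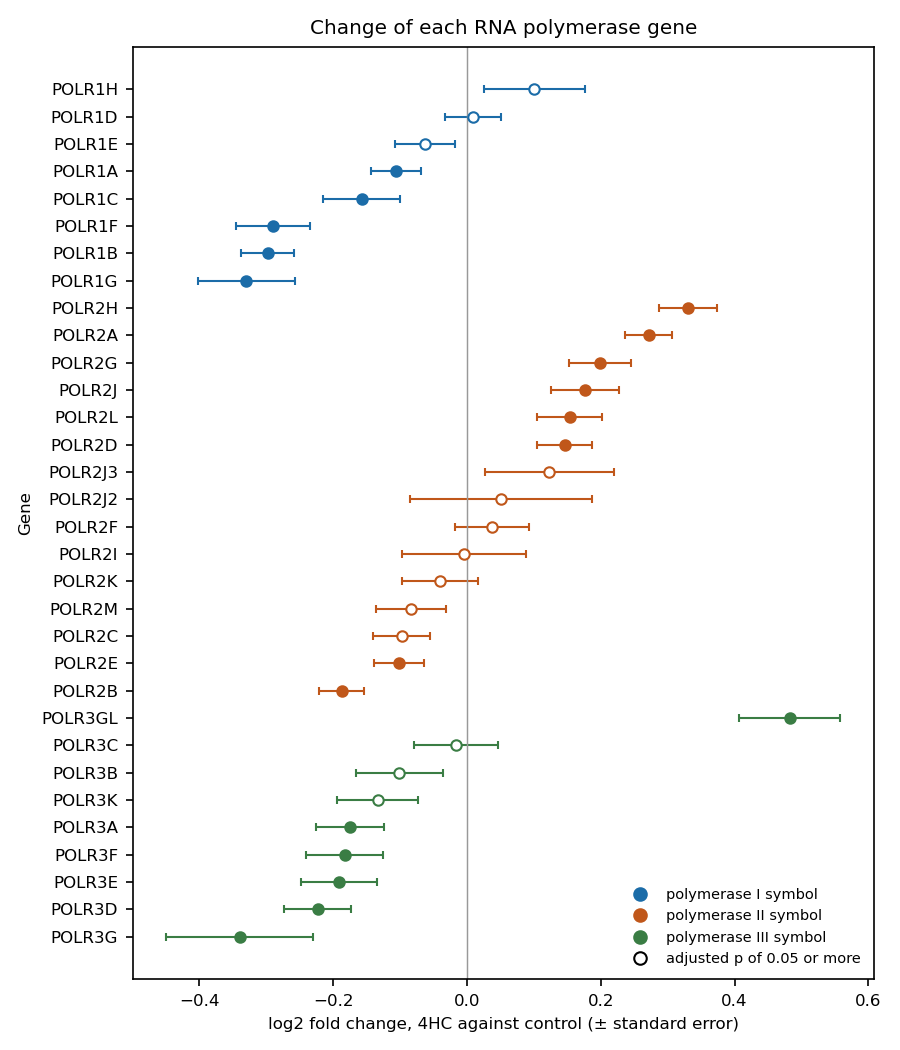
Log2 fold change of 32 of the 33 genes in 4HC against control (x axis), with bars of 1 standard error, grouped and coloured by the number in the symbol. Filled points passed an adjusted p-value under 0.05 in edgeR. POLR3GL stands at 0.48 on the right and POLR3G at -0.34 on the left, and no point reaches a log2 fold change of 1 in either direction.

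**Figure D2:**
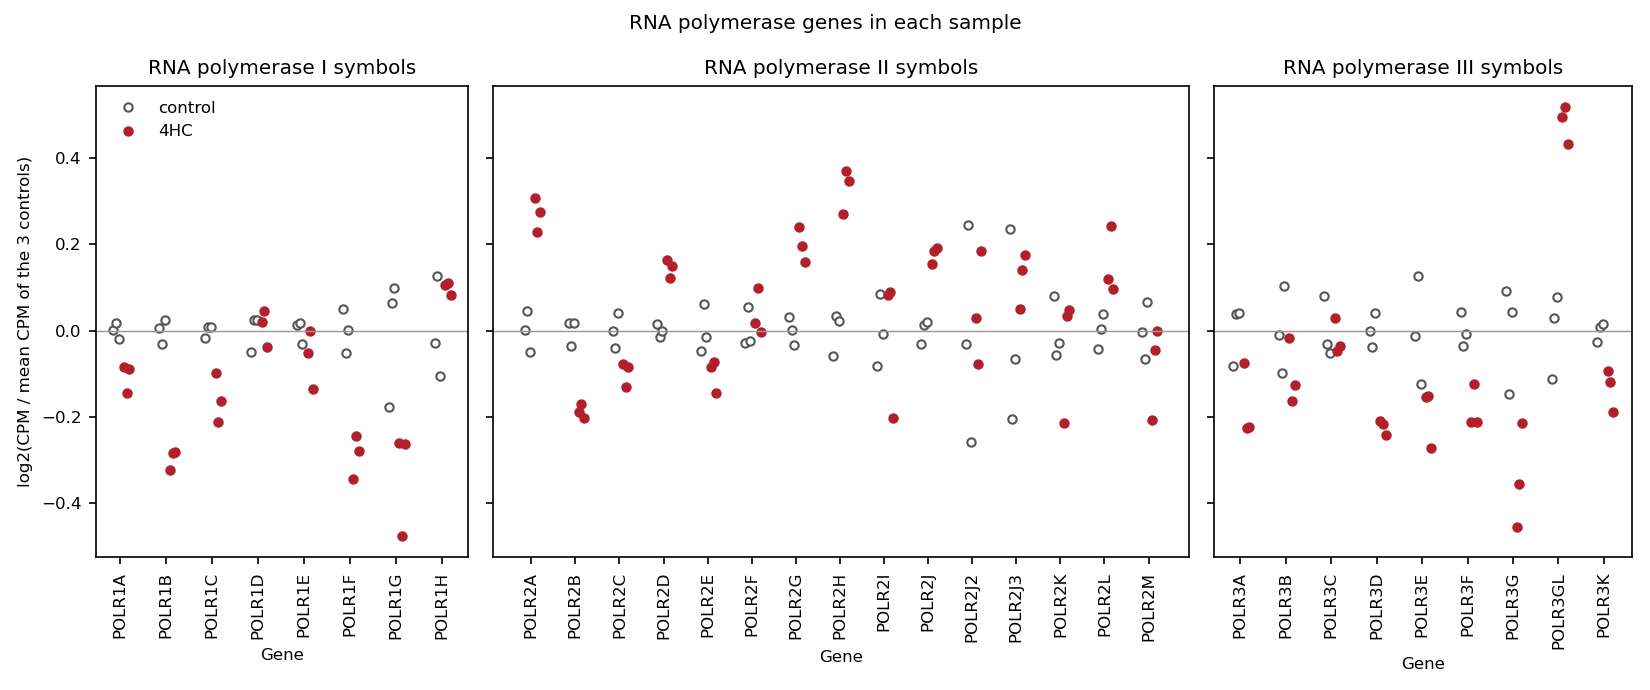
The CPM of 32 of the 33 genes in each of the 6 samples, as log2 of its ratio to the mean of the 3 controls (y axis), with control as open and 4HC as filled points. The samples of the 2 groups lie apart in POLR2A and POLR1B, for example, and in POLR2J2, POLR2J3 and POLR3B they overlap.

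Summed over each set, the polymerase I genes held 593, 601 and 598 CPM in control and 545, 543 and 539 CPM in 4HC. The polymerase III genes held 394, 401 and 402 CPM in control and 370, 365 and 352 CPM in 4HC. The polymerase II genes held 1297, 1303 and 1297 CPM in control and 1338, 1350 and 1338 CPM in 4HC. That sum was higher by 43.0 CPM on average, and POLR2A alone went from a mean of 216 to 261 CPM. The rise of the sum was thus about the size of the rise of POLR2A and does not describe the set as a whole. The 2 groups of samples did not overlap in any of the 3 sums, of which the first 2 were lower and the third was higher in 4HC, and the sums were not tested because they follow from the genes chosen. CPM is scaled to library size, so it gives a share and would not show a change in total RNA per cell. In bulk samples, a change of that share within cells and a change in the mixture of cells cannot be told apart.

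The catalytic centre was described first through the pair of large subunits of each enzyme. POLR2A, the largest subunit of polymerase II and the carrier of its repetitive C-terminal domain, lies on chr17:7484366-7514616 (GRCh38, plus strand). It held 217, 223 and 209 CPM in control and 268, 254 and 262 CPM in 4HC. Each 4HC sample was above each control sample. POLR2A rose 1.21-fold (log2 fold change 0.27 ± 0.04 SE, edgeR adjusted p = 1.08e-08). Its partner POLR2B, the second largest subunit, lies on chr4:56977722-57031168 and held 288, 278 and 288 CPM in control and 249, 253 and 247 CPM in 4HC. Here each 4HC sample was below each control sample, and POLR2B fell 1.14-fold (log2 fold change -0.19 ± 0.03 SE, edgeR adjusted p = 1.07e-05).

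The large subunits of polymerase II thus moved in opposite directions, and the ratio of POLR2A to POLR2B in TPM was 0.412 ± 0.0216 in control and 0.566 ± 0.0204 in 4HC (SD, n = 3). Per transcript length POLR2A stood below POLR2B in both groups, with 52.4 ± 1.39 against 127 ± 3.47 TPM in control and 62.9 ± 2.18 against 111 ± 1.01 TPM in 4HC. The span of POLR2B shares 396 bp with IGFBP7 (mean of 8541 counts) and 1102 bp with NOA1 (960 counts) on the opposite strand. The counting strand is not given in the sources used here.

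In polymerase I both large subunits fell. POLR1A, the largest subunit, held 159, 161 and 157 CPM in control and 150, 144 and 149 CPM in 4HC, with no overlap. It fell 1.08-fold (log2 fold change -0.11 ± 0.04 SE, edgeR adjusted p = 0.021), and the call did not survive leaving out control replicate 1 (edgeR adjusted p = 0.0507), control replicate 2 (0.0574) or 4HC replicate 2 (0.116). The call was also lost with library size as the only scaling (edgeR adjusted p = 0.0662) and with limma at pseudocounts of 1 and 0.1 (limma adjusted p of 0.119 and 0.118). POLR1B, the second largest subunit (chr2:112541915-112577150), held 131, 128 and 133 CPM in control and 104, 107 and 107 CPM in 4HC. All 3 treated samples were below all controls, and POLR1B fell 1.23-fold (log2 fold change -0.30 ± 0.04 SE, edgeR adjusted p = 1.84e-08). The POLR1A to POLR1B ratio in TPM was 0.728 ± 0.0262 in control and 0.832 ± 0.0287 in 4HC.

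In polymerase III, POLR3A, the largest subunit (chr10:77969251-78029545, minus strand), held 59.9, 65.2 and 65.3 CPM in control and 60.2, 54.2 and 54.3 CPM in 4HC. The first 4HC sample lay within the control range, so the groups overlapped. POLR3A fell 1.13-fold (log2 fold change -0.17 ± 0.05 SE, edgeR adjusted p = 0.00541), and on deposited TPM with limma the adjusted p was 0.0652 at a pseudocount of 1 and 0.0626 at 0.1. POLR3B, the second largest subunit, held 28, 26.4 and 30.3 CPM in control and 27.9, 25.2 and 25.9 CPM in 4HC, which overlapped, and did not pass the test (log2 fold change -0.10, edgeR adjusted p = 0.233). The ratio of POLR3A to POLR3B in TPM was 1.39 ± 0.116 in control and 1.32 ± 0.0157 in 4HC, a difference within the control spread.

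The largest changes of all 33 genes were those of POLR3GL and POLR3G, paralogs that take the same place in polymerase III, in the group of subunits that opens the promoter. They moved in opposite directions. By size, POLR3G was ahead of POLR2H (0.33) and POLR1G (-0.33) by less than its own standard error. POLR3GL, the form found widely in adult tissues (chr1:145964702-145978848), held 14.2, 15.6 and 16.2 CPM in control and 21.6, 22.0 and 20.7 CPM in 4HC. Every treated sample lay above every control sample. POLR3GL rose 1.4-fold (log2 fold change 0.48 ± 0.08 SE, edgeR adjusted p = 9.51e-07), a size above that of 93.0% of all genes tested. POLR3G, the form best known from pluripotent and tumour cells (chr5:90471748-90514553), held 10.6, 8.99 and 10.3 CPM in control and 7.24, 7.77 and 8.57 CPM in 4HC, without overlap. POLR3G fell 1.27-fold (log2 fold change -0.34 ± 0.11 SE, edgeR adjusted p = 0.0117). The call was lost when single libraries were left out, as the edgeR adjusted p was 0.0629 without control replicate 1 and 0.0617 without 4HC replicate 1, and DESeq2 gave an adjusted p of 0.0779. The span of POLR3G shares 3021 bp with MBLAC2 on the opposite strand, which averaged 259 counts.

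As a share of the summed TPM of both paralogs, POLR3G made up 17.9%, 14.1% and 15.6% in control and 8.95%, 9.31% and 10.8% in 4HC. The means were 15.9% ± 1.93 and 9.68% ± 0.970 (SD, n = 3), a difference of -6.20 percentage points. All treated samples were lower than all controls, and the two-sided exact permutation test gave p = 0.1, the smallest value that 3 against 3 samples allow. POLR3GL was the more abundant paralog per length in both groups, with 27.1 ± 1.89 TPM in control and 37.6 ± 1.06 TPM in 4HC, against 5.10 ± 0.518 and 4.02 ± 0.332 TPM of POLR3G.

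**Figure D3:**
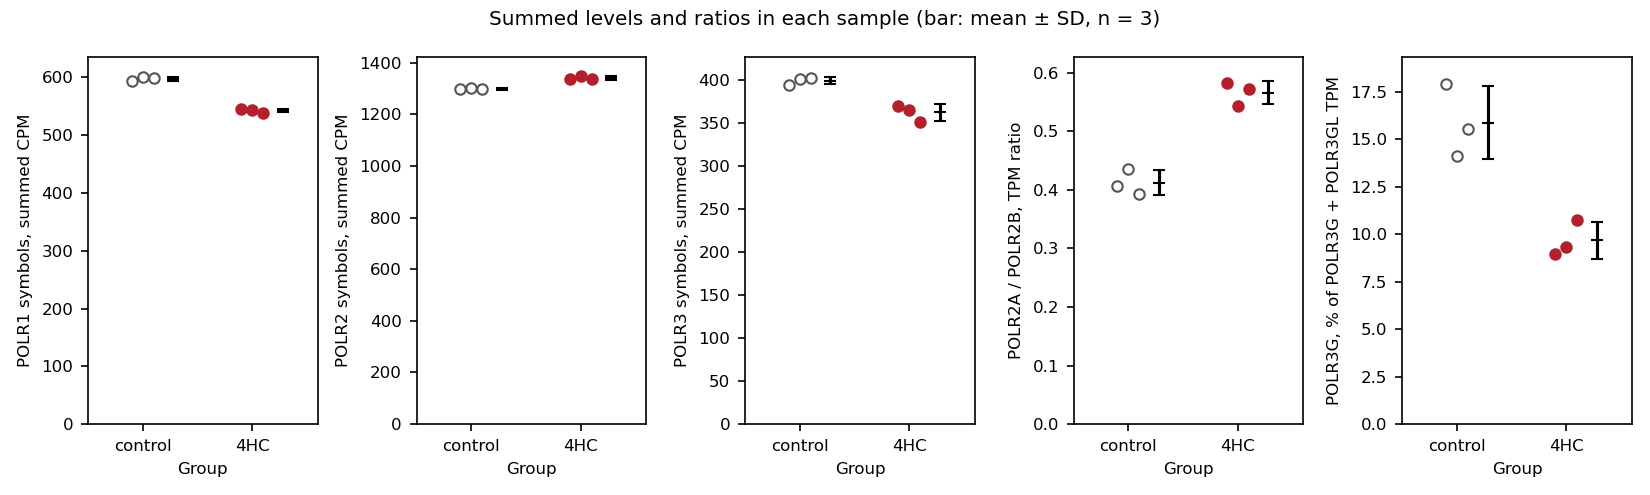
Summed CPM of the genes of each polymerase, the TPM ratio of POLR2A to POLR2B, and POLR3G as a percentage of the summed TPM of POLR3G and POLR3GL, in each of the 6 samples, with the mean and SD of 3 samples beside them and all y axes from 0. The ratio of POLR2A to POLR2B moves from 0.412 to 0.566 and the POLR3G share from 15.9% to 9.68%, with no overlap between control and 4HC in any of the 5 panels.

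Upstream sequence is shown for 3 of these genes, because POLR3GL and POLR2A rose while POLR3G and POLR2B fell. The third, POLR3A, was among the 6 of 10 genes with a polymerase III symbol that fell. Promoter windows of RefSeq (GRCh38.p14, 250 bases before to 50 after the start of a gene) matched 24 of the 33 genes. Only a piece of each window is printed, namely the longest stretch before the RefSeq start that no GENCODE exon of any gene covers, shortened to at most 160 bases. The pieces are 107 bases for POLR3GL, 102 for POLR2A and 160 for POLR3A, 5′ to 3′ along the gene's strand, with complete matches to the searched motifs in capitals.
POLR3GL, chr1:145964583-145964689, plus strand: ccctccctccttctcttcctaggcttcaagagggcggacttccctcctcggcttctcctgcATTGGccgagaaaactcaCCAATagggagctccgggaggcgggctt
POLR2A, chr17:7484264-7484365, plus strand: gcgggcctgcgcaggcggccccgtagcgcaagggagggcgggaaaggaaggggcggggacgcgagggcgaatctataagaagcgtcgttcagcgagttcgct
POLR3A, chr10:78029546-78029705, minus strand: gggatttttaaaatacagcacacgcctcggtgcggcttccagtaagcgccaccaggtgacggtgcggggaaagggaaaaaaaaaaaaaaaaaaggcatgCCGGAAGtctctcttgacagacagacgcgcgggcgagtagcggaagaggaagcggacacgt

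The stretch of POLR3GL holds CCAAT on each strand (the second as ATTGG), that of POLR3A holds CCGGAAG, and that of POLR2A holds none of the 5 motifs searched. The motifs, read on both strands, were the CCAAT box, the ETS-type site CCGGAAG, the E-box CACGTG, the palindromic site of NRF1 and the TATA box TATAAA. None of them contains another. The CACGTG of the POLR3A window runs past the 3′ end of the printed piece and is therefore not in capitals. Over whole windows, CACGTG stood in those of 4 of the 24 genes (POLR1G, POLR3A, POLR3C and POLR3E), against 12.7% of the genes tested that have a window. CCGGAAG stood in 9 of 24, against 22.9%, and the NRF1 site in 3 of 24, against 2.80%. CCAAT stood in 6 of 24, against 43.6%, and TATAAA in 1 of 24, POLR2M, against 8.14%. By call, CCAAT stood in 1 of the 5 genes with a window that rose, 0 of the 10 that fell and 5 of the 9 not called. CACGTG stood in 0 of 5, 3 of 10 and 1 of 9, CCGGAAG in 1 of 5, 3 of 10 and 5 of 9, the NRF1 site in 1 of 5, 0 of 10 and 2 of 9, and TATAAA in 0 of 5, 0 of 10 and 1 of 9. A match in a window is a description of the letters and was not tested against binding.

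Polymerase I has 4 further subunits of its own besides the large pair, of which POLR1G and POLR1F fell. POLR1G, which pairs with POLR1E in a module that resembles initiation factors, lies on chr19:45406209-45410766 under its older name CD3EAP. It held 23.9, 28.2 and 29 CPM in control and 22.6, 19.4 and 22.5 CPM in 4HC, where all treated samples were lower, the first of each group being the closest. POLR1G fell 1.26-fold (log2 fold change -0.33 ± 0.07 SE, edgeR adjusted p = 0.000236). Its span shares 3434 bp with ERCC1 on the opposite strand, which averaged 1914 counts. POLR1F, the stalk subunit that meets the initiation factor RRN3, held 47.0, 43.7 and 45.4 CPM in control and 35.7, 38.2 and 37.3 CPM in 4HC, without overlap. POLR1F fell 1.22-fold (log2 fold change -0.29 ± 0.05 SE, edgeR adjusted p = 2.8e-05). The partner of POLR1G, POLR1E, did not pass (log2 fold change -0.06, edgeR adjusted p = 0.288), nor did the zinc-ribbon subunit POLR1H (0.10, adjusted p = 0.308).

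POLR1C and POLR1D form the platform on which polymerases I and III are assembled, and are built into both. POLR1C held 36.2, 36.8 and 36.8 CPM in control and 34.2, 31.6 and 32.7 CPM in 4HC, with all treated samples lower. It fell 1.12-fold (log2 fold change -0.16 ± 0.06 SE, edgeR adjusted p = 0.0277). The call was lost without control replicate 2 (adjusted p = 0.0579), control replicate 3 (0.0734), 4HC replicate 2 (0.127) or 4HC replicate 3 (0.0549), and under DESeq2 (0.108). It was also lost with library size as the only scaling (edgeR adjusted p = 0.0593). The span of POLR1C shares 40090 bp with XPO5 on the opposite strand, which averaged 2305 counts. POLR1D, its partner, had a log2 fold change of 0.01 (edgeR adjusted p = 0.895) and was the most abundant of the 8 polymerase I genes per length, with 203 ± 6.64 TPM in control.

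Among the polymerase II genes, the subunits outside the catalytic pair that passed the test rose, with the exception of POLR2E. POLR2G and POLR2D, which form the stalk over the exit of the new RNA, both rose. POLR2G held 65.9, 64.6 and 63.0 CPM in control and 76.2, 73.9 and 72.0 CPM in 4HC, every treated sample being higher. It rose 1.15-fold (log2 fold change 0.20 ± 0.05 SE, edgeR adjusted p = 0.000492), and POLR2D rose 1.11-fold (0.15 ± 0.04 SE, adjusted p = 0.00401). POLR2C, the partner of POLR2J in the assembly platform, had a log2 fold change of -0.10 (edgeR adjusted p = 0.0656), and passed only without control replicate 2 (adjusted p = 0.043). The zinc-ribbon subunit POLR2I (adjusted p = 0.977) and POLR2M, a protein that joins the finished enzyme rather than its core (adjusted p = 0.218), did not pass.

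POLR2J, POLR2J2 and POLR2J3 are near-identical copies, so reads may be split between them. POLR2J held 47.0, 48.5 and 48.7 CPM in control and 53.5, 54.6 and 54.9 CPM in 4HC, without overlap, and rose 1.13-fold (log2 fold change 0.18 ± 0.05 SE, edgeR adjusted p = 0.00446). POLR2J2 held 5.79, 7.02 and 4.95 CPM in control and 6.04, 5.61 and 6.73 CPM in 4HC, and POLR2J3 held 14.3, 10.5 and 11.6 against 12.6, 13.4 and 13.7 CPM. Both copies overlapped between the groups and neither passed (adjusted p of 0.806 and 0.337). With the 3 copies summed into 1 gene the rise remained, with a log2 fold change of 0.16 ± 0.05 SE (edgeR adjusted p = 0.00549). POLR2J made up 72.7% ± 2.38 of the counts of the 3 copies in control and 73.8% ± 0.775 in 4HC.

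Of the 7 subunits that more than one of the enzymes contain, 2 rose and 2 fell. This is 28.6% each, against 19.2% of all genes tested called higher and 17.1% lower. The 2 that rose, POLR2H and POLR2L, and POLR2E, which fell, are built into all 3 enzymes, as are POLR2F and POLR2K. POLR2H, a small subunit, lies on chr3:184361718-184368596 and held 76.5, 81.6 and 81.0 CPM in control and 96.2, 103 and 101 CPM in 4HC. Each treated sample was above each control sample. POLR2H rose 1.26-fold (log2 fold change 0.33 ± 0.04 SE, edgeR adjusted p = 1.72e-08), the largest change among the genes with a polymerase II symbol. POLR2L rose 1.11-fold (adjusted p = 0.0101) and shares 2476 bp of its span with CD151 on the opposite strand, which averaged 4049 counts. That call was lost without control replicate 1 or 4HC replicate 2 and under DESeq2, with adjusted p-values up to 0.140. POLR2E fell 1.07-fold (adjusted p = 0.0301), a call lost without control replicate 2, control replicate 3 or 4HC replicate 3, with library size as the only scaling and with limma at either pseudocount (adjusted p up to 0.176 over these settings). POLR2F (log2 fold change 0.04) and POLR2K (-0.04) did not pass.

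Among the other subunits of polymerase III, POLR3D and POLR3E form a pair that acts in initiation and termination, and both fell. POLR3D held 55.4, 54.0 and 57.0 CPM in control and 47.9, 47.7 and 46.9 CPM in 4HC, with all treated samples lower. It fell 1.17-fold (log2 fold change -0.22 ± 0.05 SE, edgeR adjusted p = 0.000361). POLR3E fell 1.14-fold (adjusted p = 0.0059), and this call was lost without control replicate 2 and with limma on log2(TPM + 1), with adjusted p-values up to 0.103. CRCP, a stalk subunit of polymerase III whose symbol the naming rule does not catch, held 40.0, 40.2 and 39.8 CPM in control and 39.5, 38.2 and 36.2 CPM in 4HC and did not pass (log2 fold change -0.08, edgeR adjusted p = 0.304).

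POLR3C and POLR3F stand beside POLR3G or POLR3GL in the enzyme. POLR3F fell 1.14-fold (edgeR adjusted p = 0.0102, and 0.054 under DESeq2), and POLR3C did not pass (log2 fold change -0.02, adjusted p = 0.865). POLR3K, the zinc-ribbon subunit that cleaves the RNA at termination, had a log2 fold change of -0.13 and an adjusted p of 0.0777.

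Per transcript length, the genes spanned a wide range. POLR1D (203 ± 6.64 TPM), POLR2G (201 ± 3.97), POLR2E (185 ± 7.92) and POLR2L (165 ± 5.35) were the highest in control, and the first 2 differed by less than their spread. POLR3K was the highest of the polymerase III genes at 45.7 ± 0.803 TPM, and POLR3F stood at 31.1 ± 0.955 TPM. POLR3G at 5.10 ± 0.518 TPM and POLR2J2 at 5.41 ± 0.905 TPM were the lowest and differed by less than their spread. The large subunits of polymerases I and III lay below those of polymerase II, with POLR1A at 20.4 ± 0.138 TPM and POLR3A at 15.7 ± 0.752 TPM against 52.4 ± 1.39 TPM for POLR2A.

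**Figure D4:**
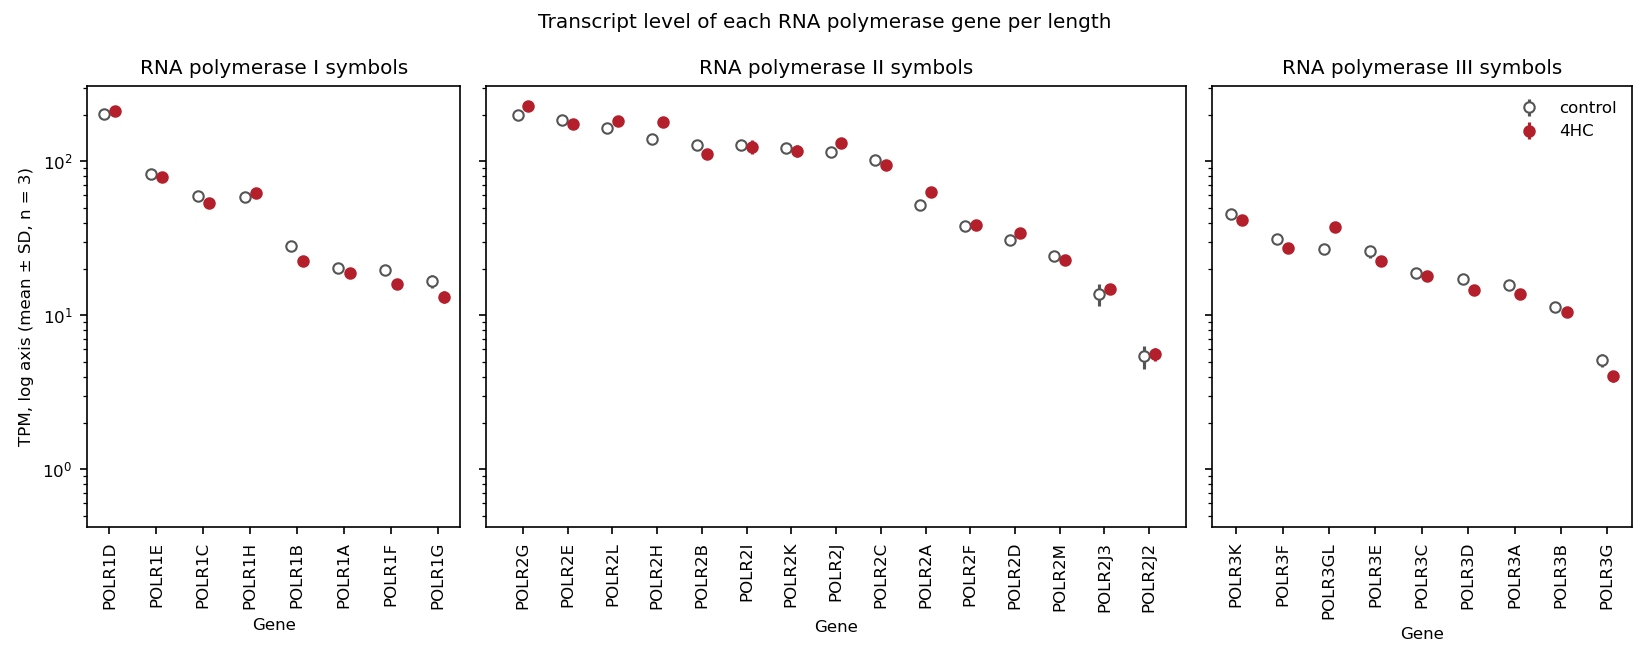
Mean TPM with SD of 3 samples for 32 of the 33 genes on a log axis, control open and 4HC filled, in descending order of the control level within each polymerase. In control the polymerase I genes run from 203 TPM (POLR1D) to 16.7 TPM (POLR1G), the polymerase II genes from 201 TPM (POLR2G) to 5.41 TPM (POLR2J2) and the polymerase III genes from 45.7 TPM (POLR3K) to 5.10 TPM (POLR3G).

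The proteins that work with each polymerase were counted from lists of partner genes, against 36.4% of all genes tested called, 19.2% higher and 17.1% lower. For polymerase I, 1 of 7 factors fell and 0 rose (14.3% called, below that share, median log2 fold change -0.02), and the same held at an unadjusted p-value under 0.05. The 1 was RRN3, the factor that brings polymerase I to the promoter through POLR1F. It held 121, 117 and 119 CPM in control and 108, 96.7 and 107 CPM in 4HC, without overlap, and fell with a log2 fold change of -0.20 ± 0.04 SE (edgeR adjusted p = 0.000191). UBTF, which binds the ribosomal DNA promoter, averaged 165 ± 8.59 CPM in control and 166 ± 1.47 CPM in 4HC and did not pass (adjusted p = 0.958).

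For polymerase III, 5 of 17 factors fell and 0 rose (29.4% called against 36.4% of all genes, median -0.06), while 7 passed an unadjusted p-value under 0.05, of which GTF3C6, a subunit named here after its values were seen, was the 1 that was higher. SNAPC1 and SNAPC4 are subunits of the complex that binds small nuclear RNA promoters, which polymerases II and III both use. SNAPC1 held 11.7, 11.3 and 11.5 CPM in control and 8.03, 9.0 and 9.43 CPM in 4HC, all treated samples being lower, and fell with a log2 fold change of -0.38 ± 0.10 SE (edgeR adjusted p = 0.00203). SNAPC4 fell from 31.1 ± 0.507 to 25.5 ± 1.58 CPM (-0.29, adjusted p = 0.000231). GTF3C4, a subunit of the factor that binds inside transfer RNA genes, fell from 103 ± 3.11 to 88.3 ± 3.81 CPM (-0.22, adjusted p = 6.31e-05). MAF1, the repressor of polymerase III, averaged 62.4 ± 2.89 CPM in control and 64.3 ± 2.42 CPM in 4HC and did not pass (adjusted p = 0.504).

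Of 33 general factors of polymerase II, 3 rose and 7 fell (median -0.04), which is 30.3% called against 36.4% of all genes. TAF3, a TFIID subunit that reads a histone mark of active promoters, held 19.2, 18.4 and 17.9 CPM in control and 27.4, 24.7 and 24.9 CPM in 4HC. All 3 treated samples were above the controls, and TAF3 rose with a log2 fold change of 0.47 ± 0.07 SE (edgeR adjusted p = 2.67e-07). GTF2H2, a TFIIH subunit whose near copies share reads, fell (-0.28, adjusted p = 0.000266), and TAF13 fell (-0.26, adjusted p = 0.00349) but not without 4HC replicate 2 (-0.18, adjusted p = 0.07). TBP, which all 3 polymerases use, averaged 17.2 ± 0.634 CPM in control and 15.4 ± 1.57 CPM in 4HC and did not pass (-0.16, adjusted p = 0.123).

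Of 26 pausing and elongation factors, 3 rose and 7 fell (median 0.01), which is 38.5% called and near the 36.4% of all genes. ELL2, an elongation factor, held 12.3, 10.5 and 9.89 CPM in control and 14.1, 15.3 and 15.5 CPM in 4HC, without overlap, and rose with a log2 fold change of 0.46 ± 0.09 SE (edgeR adjusted p = 7.18e-05). TCEA2, a form of the factor that restarts arrested polymerase II, rose from 14.2 ± 1.12 to 18.3 ± 0.704 CPM (0.37, adjusted p = 0.000267). TCEA1, the more abundant form in the list, named here after its values were seen, went the other way. It fell from 188 ± 3.11 to 175 ± 7.38 CPM (-0.10, adjusted p = 0.0259). ELOA, the Elongin A subunit, also part of a ubiquitin ligase that acts on POLR2A, fell from 151 ± 1.4 to 129 ± 3.05 CPM (-0.23, adjusted p = 1.9e-06).

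Of 14 factors that assemble the enzymes in the cytoplasm, 3 rose and 3 fell (median -0.04). This is 42.9% called, against 36.4% of all genes and 40.8% of genes with at least 5 CPM. RUVBL1, an ATPase of the assembly chaperone, held 116, 118 and 122 CPM in control and 94.3, 95.7 and 99.8 CPM in 4HC. No treated sample reached the controls, and RUVBL1 fell with a log2 fold change of -0.30 ± 0.04 SE (edgeR adjusted p = 4.18e-08). PIH1D1, an adaptor of the same chaperone, rose from 39.9 ± 1.04 to 47.6 ± 1.43 CPM (0.25, adjusted p = 0.000137), and PFDN6, a prefoldin subunit, fell from 35.3 ± 1.03 to 29.7 ± 0.763 CPM (-0.25, adjusted p = 0.000565).

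At the level of single transcripts, the 33 genes had 135 rows, of which 87 could be tested and 3 passed an edgeR adjusted p-value under 0.05, against 1.29% of 42216 transcripts. At an unadjusted p-value under 0.05 there were 20. The 3 were the transcript of POLR2A, which is listed on the primary and on an alternate sequence with the same counts in each (log2 fold change 0.27, adjusted p = 0.0402), and the main transcript of POLR2B (-0.19, adjusted p = 0.0288), which held 98.8% of the gene's counts in control. The main transcript of POLR3GL held 92.4% of that gene's counts and had a log2 fold change of 0.51 (adjusted p = 0.0701). Counts of POLR3G were spread over 7 transcripts, with 60.1% ± 10.1 on the first in control and 45.3% ± 15.8 in 4HC. POLR1H had 28 rows, 24 of them on alternate sequences. All 3 transcript calls were lost when any 1 of the 6 samples was left out. The error of assigning reads to transcripts is not in these p-values.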

How the data were processed

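RNA-seq of 3 control and 3 4HC-treated COV434 samples was used. The authors filtered reads with SOAPnuke and worked on the Dr. Tom system, and the submitters' processing notes name HISAT2, Bowtie2, RSEM 1.3.1, DESeq2 1.4.5 and GRCh38.p13. The deposited values were expected counts of 16798 genes and 79213 transcripts, without normalization, of which 85.5% were whole at the gene level, and TPM scaled by the authors to transcript length. The deposited FPKM values and the authors' own comparison columns (log2 fold change, p-value and q-value) were not used.

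Expected counts were rounded and fitted with edgeR 4.0.16 in R 4.3.3 (TMM, filterByExpr, quasi-likelihood test, group as the only term), with Benjamini-Hochberg adjustment over the 12368 genes tested, and the script was tested on simulated data. Alternatives were DESeq2 1.42.0, other scalings and filters, limma 3.58.1 on log2(TPM + 1) and log2(TPM + 0.1), a replicate block, leaving out each sample, and a fold change of at least 2 with an unadjusted p-value under 0.05, the study's criteria, which was added after the data were seen. Coordinates were taken from GENCODE 29 on GRCh38. Standard errors and SDs rest on 3 samples a group.

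The 33 genes, partner lists and markers were chosen with earlier results of these data known. Values in every sample were given for the 2 largest subunits of each polymerase, the paralogs of POLR3G and POLR2J, and up to 4 genes of each polymerase whose absolute log2 fold change was largest among those called. From each partner list up to 3 genes were named by the same measure, with MAF1, RRN3, UBTF and TBP. CRCP was named as a subunit under another symbol. TCEA1 was added as the other form beside TCEA2 and is not in the counts over named genes. Of the 33 genes, 1 enters the counts, sums and medians but is not reported here by itself.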

Additional observations from a re-analysis of the deposited data

How the results depend on the processing

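Of the 20 calls, 11 held in all 14 other settings and 9 were lost in at least 1, among them POLR1A, POLR1C, POLR2E, POLR2L, POLR3A, POLR3E, POLR3F and POLR3G, with no change of sign. With DESeq2, 6 of the 33 genes rose and 10 fell, beside 1614 and 1564 of all genes, and 6 general polymerase II factors were called. The polymerase I genes that fell were 3 with library size as the only scaling and 3 to 5 when 1 sample was left out (3 without control replicate 2 or without 4HC replicate 2). The polymerase II genes that fell were 1 with library size only and under limma with either pseudocount, and 1 to 2 when 1 sample was left out (1 without control replicate 3 or without 4HC replicate 3). The polymerase III genes that fell were 4 with DESeq2 and with limma on log2(TPM + 1), and 5 with limma on log2(TPM + 0.1). They were 5 to 6 when 1 sample was left out. In the edgeR fit at a fold change of at least 2, 126 genes rose and 16 fell, with 0 and 0 of the 33. The study reported many more genes in each direction with the same criteria in its own DESeq2 run. These criteria were not applied to a DESeq2 fit here, and the reason for the gap was not tested. Over the named genes, 461 of 491 values kept direction and call, 20 lost the call and 10 changed sign, all of these 10 in POLR2J2 and UBTF, which were not called. POLR2J2 ranged from -0.0648 to 0.190 when 1 sample was left out. UBTF was -0.00288 with DESeq2, -0.00209 with DESeq2 size factors, -4.9e-05 without the filter and -0.0181 and -0.0183 with limma, and ranged from -0.0388 to 0.0362 when 1 sample was left out. With 1 sample left out, the POLR3G share of TPM differed by -7.08 to -5.16 percentage points. The level and size of the share depended on the measure. As a share of counts, which are not per length, POLR3G made up 39.4% ± 3.20 in control and 26.8% ± 2.18 in 4HC. That is a difference of -12.5 percentage points in the same direction.

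The labels number the samples in each group, and the deviations of same-numbered samples from their group means had correlations of -0.0512, 0.000517 and 0.133. These values cannot show whether same-numbered samples were handled together, and group was the only term of the main fit. With the replicate block 7 of the 33 genes rose and 13 fell, and 2259 and 1954 of all genes did. Of the transcripts of the 33 genes, 2 rose and 1 fell. The counts were 0 and 0 with the block, 0 rose without the filter, 6 and 6 were called with DESeq2, and 0 to 0 in each direction when 1 sample was left out. At 3 samples a group and this depth, changes of the size of POLR2I (SE 0.09) or POLR2J2 (SE 0.14) could not be told from 0.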

Other observations

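The genes that rose spanned a median of 6879 bp from first to last exon, those that fell 35236 bp, those not called 17763 bp and all genes tested 33166 bp. Across the 33 genes the Spearman correlation of log2 fold change with span was -0.27, and -0.10 across 12293 genes tested. The correlation with mean CPM was 0.02 across the 33 genes and -0.15 across all genes tested. Genes are not independent replicates, share the same 6 libraries, and these are descriptions.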
